A study of Mus musculus with 30 samples.

Results

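The genes described here decide whether a cell survives or dies through the mitochondrial pathway of apoptosis. They are the survival genes Bcl2, Bcl2l1 and Mcl1, the effectors Bax and Bak1, the BH3-only genes Bcl2l11, Bbc3 and Bid, and Trp53, which encodes p53. They were chosen by name as members of this pathway, and every probe set that the array annotation gives to 1 of them alone was taken. Of the 9 genes, 7 could be read, by 26 of the 45101 probe sets on the array (7 of 18194 named genes). Trp53 and Bax are not listed in the annotation used and were not analysed here.

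The survival proteins hold the effectors BAX and BAK1 in check at the outer mitochondrial membrane. BH3-only proteins are the upstream signals that occupy the survival proteins or switch on the effectors, which then open the membrane and release cytochrome c, so that APAF1 can assemble the apoptosome and start the caspases. p53 responds to DNA damage and other stress by raising transcription of Bbc3, Bax and other genes. Primordial germ cells (PGCs), the precursors of sperm and oocytes, depend on survival signals such as KIT and its ligand while they migrate, and those that stray are removed by apoptosis.

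Each sample was 1 PGC, picked at random with a glass capillary from the base of the allantois bud of C57BL/6 embryos at E7.25 to E7.5, and kept if its amplified cDNA gave a Prdm1 signal by PCR. All embryos came from crosses between Prdm14 +/- parents, and each cell was genotyped by PCR as Prdm14 (+/+), called WT (13 cells), Prdm14 (+/-) (13 cells) or Prdm14 (-/-), called Prdm14 KO (4 cells). No other allele and no treatment is given. Prdm14 encodes a transcriptional regulator needed for epigenetic reprogramming in PGCs. The labels name no embryo, so the cells of a genotype count as 1 sample, no test across genes was possible, and each difference is given beside the pooled SD between cells.

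Array codes place the cells in 3 array runs. Run 1 was made up of 10 WT-labelled cells alone. Run 2 mixed 3 WT-labelled with 7 Prdm14+/- cells, and run 3 mixed 6 Prdm14+/- cells with all 4 KO-labelled ones. The KO and WT labels never shared a run, and their comparison cannot be told apart from the run unless it is linked through the Prdm14+/- cells. Values are log2 MBEI (a model-based expression index of the array signal), and anything under 6 was set to 6, the floor. The floor left 31.6% to 44.8% of genes readable per cell, lowest in cells 59 and 66. The level of 1 probe set cannot be set against another's, so genes are compared through their differences only, and a gene given below for contrast is the one with the brightest probe set of its list, which is not a ranking of expression.

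Prdm14 itself ran against the genotype labels. Its mean was 7.40 ± 1.85 (SD, n = 13) under the WT label, where 6 of 13 cells passed the floor, 9.70 ± 1.93 (SD, n = 13) under the Prdm14+/- label and 11.40 ± 0.98 (SD, n = 4) under the KO label. The sources used here do not say whether the probe set lies in the deleted part, and whether each array carries the right genotype label could not be settled. If the labels ran in the opposite order, every KO-minus-WT direction below would turn. Dppa3, one of the PGC markers and a gene of interest to the study, took the same order, with 9.05 ± 2.01 (SD, n = 13) under the WT label, 10.23 ± 2.87 (SD, n = 13) under the Prdm14+/- label and 12.55 ± 0.38 (SD, n = 4) under the KO label. The mean log2 level of 10 PGC marker genes was likewise higher in the 4 cells labelled KO (11.56 ± 0.18) than in any cell labelled WT (8.09 to 10.95), and 8 of the 10 markers were higher by at least 1, as were 8.14% of all genes. The 10 markers include Prdm14 and Dppa3 themselves, so that mean and count partly repeat their readings. The mean of 13 somatic mesoderm markers lay at 7.81 to 9.15 in cells labelled KO and at 7.96 to 9.47 in cells labelled WT. KO, Prdm14+/- and WT below therefore stand for what the labels say, and the part that PGC marker level plays in any difference was not tested.

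Mcl1 was the survival gene read in every cell. It encodes a short-lived BCL2 relative that sequesters BAK1 and BIM, and 6 probe sets carry it, each above the floor in at least 20 of 30 cells. At the brightest, 1448503_at, the 4 cells labelled KO read 11.88 (cell 8), 10.73 (cell 18), 11.04 (cell 21) and 11.70 (cell 81). The 13 cells labelled Prdm14+/- ran from 10.92 through a median of 11.66 to 12.61, and the 13 labelled WT from the floor through 10.96 to 11.99. The 3 groups thus overlapped, with the widest spread among the WT-labelled cells. The KO-minus-WT difference was 0.92 (pooled SD 1.55) at this probe set, but below 0 at the other 5, with -0.63 (pooled SD 1.40) at 1416880_at, and with run as a block the 2 values were 1.46 and -1.64, so no direction between those labels can be given for Mcl1.

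On single WT-labelled arrays the Mcl1 probe sets disagreed. Cell 64 was listed at 0 at 1448503_at but read 9.18 at 1416880_at and 9.79 at 1416881_at. Cell 50 showed the reverse, at 10.08 at 1448503_at and under the floor at the other 5. Neither cell lacked Mcl1 signal, and a gene at the floor of 1 probe set in a single cell was not necessarily unexpressed.

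**Figure D1:**
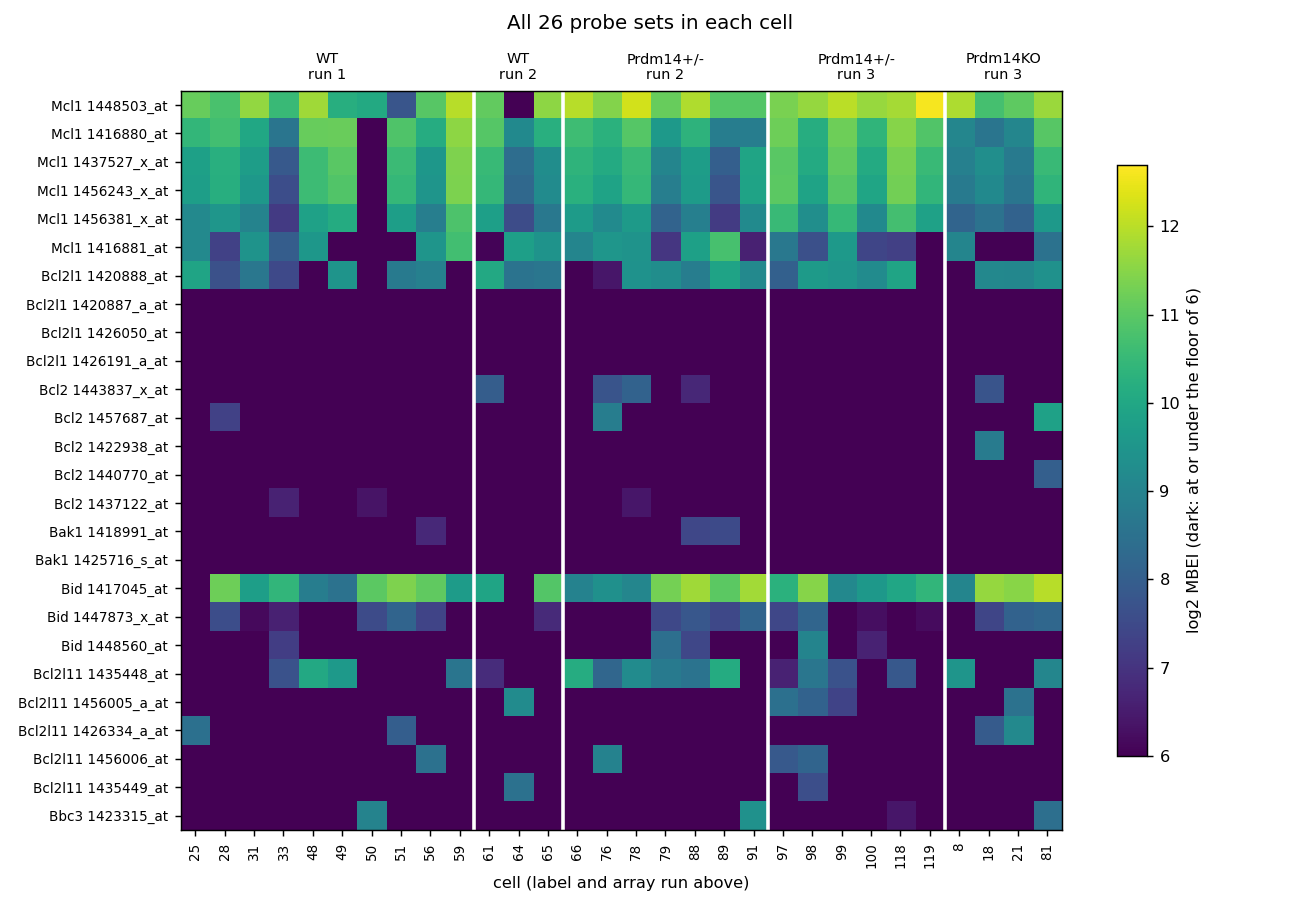
Each row is 1 of the 26 probe sets, each column 1 of the 30 cells grouped by label and array run, and colour gives log2 MBEI from the floor of 6 (dark) upward. Mcl1 is bright in every cell at 1 probe set or another, Bid at 1417045_at in 28 and Bcl2l1 at 1420888_at in 24 cells, while Bcl2, Bak1 and Bbc3 appear in scattered single cells.

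Within run 3, Mcl1 was lower in the cells labelled KO than in those labelled Prdm14+/- at all 6 probe sets, and by more than the pooled SD at 5 of them. At 1416880_at the KO-labelled cells read 9.09, 8.59, 9.08 and 10.97 for cells 8, 18, 21 and 81, while the 6 Prdm14+/- cells of the run read 10.17 to 11.47. Cells 8, 18 and 21 lay below all 6, and cell 81 lay among them. The difference of means was -1.46 (pooled SD 0.76), and -1.97 without cell 81. It was -1.31, -1.35 and -1.42 at 1437527_x_at, 1456243_x_at and 1456381_x_at (pooled SDs of 0.65 to 0.68), and smaller at 1448503_at (-0.51, pooled SD 0.48) and 1416881_at (-0.37, pooled SD 1.40), where it was 0.09 without cell 18 or cell 21. The same cells differed in cell type markers. The mean of the PGC markers was 1.96 higher under the KO label in this run, with no overlap, and that of the somatic mesoderm markers differed by -0.83 (pooled SD 0.82). Of these, 6 of 13 were lower by at least 1 and 1 was higher, where 5.88% and 8.76% of all genes were. Their part in the Mcl1 difference was not tested.

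These are not 6 independent readings. The 4 probe sets with a difference past 1 varied together over the 30 cells (Pearson r of at least 0.92 between them), whereas 1448503_at followed them loosely (r of 0.32 to 0.37), and the suffix _x_at marks sets whose probes can also match other sequences. Of all 8019 probe sets with a mean of at least 8, 10.2% were lower by 1 or more in the KO-labelled cells of this run, as were those 4 of Mcl1. The share of all probe sets lower by more than their pooled SD is not given here, so the count of 5 has no background beside it. The difference also stood beside a run shift within 1 label: Prdm14+/- cells of run 3 read 0.97 higher at 1416880_at than those of run 2, and the 4 KO-labelled cells overlapped the run 2 cells, which read 8.83 to 10.94.

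**Figure D2:**
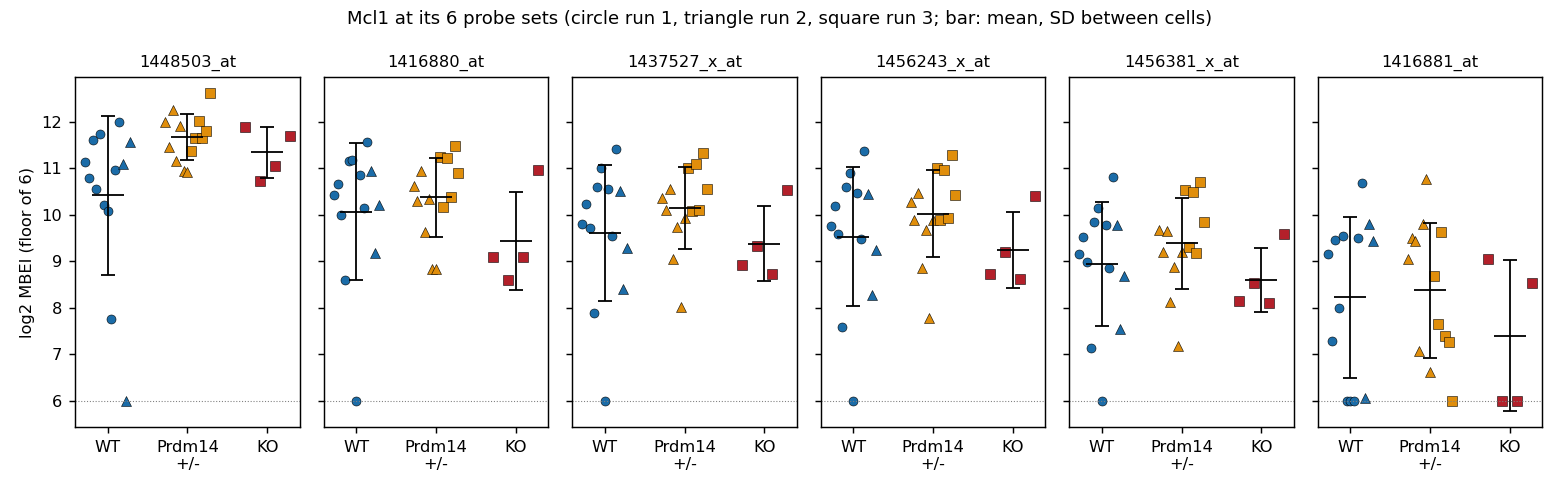
Log2 MBEI of Mcl1 at its 6 probe sets (y axis, floor of 6) in cells labelled WT, Prdm14+/- and KO (x axis), with symbols for the array run and bars for the mean and SD between cells. At the 4 middle probe sets, 3 of the 4 KO-labelled squares lie below the 6 orange squares of the same run, and cell 81 lies among them.

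Bcl2l1, which encodes the survival protein BCL-XL, was read in most cells and not in a few. It was above the floor in 24 of 30 cells at 1420888_at, and its other 3 probe sets were above it in none. The cells labelled KO read the floor (cell 8), 9.12, 9.09 and 9.39 (cells 18, 21 and 81). Cells labelled Prdm14+/- ran from the floor through a median of 9.24 to 9.91, and those labelled WT from the floor through 8.63 to 10.04. All 6 cells at the floor were listed at 0, and every other cell lay at 6.39 or above, so the spread was mostly between cells with and without signal. The KO-minus-WT difference was 0.24 and the KO-minus-Prdm14+/- difference -0.17, against pooled SDs of 1.47 and 1.5. The first changed sign to -0.98 with run as a block, and to -0.08 without cell 81, and was 1.04 without cell 8, so no direction between those labels can be given for Bcl2l1 either.

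Bcl2, the founding survival gene of the family, was seldom above the floor. Its 5 probe sets were each above the floor in 1 to 5 cells, and 9 of 30 cells had signal at any of them. At 1443837_x_at it read 7.75 in KO-labelled cell 18, 7.98 in WT-labelled cell 61, and 7.74, 8.11 and 6.76 in Prdm14+/- cells 76, 78 and 88. The brightest reading at any Bcl2 probe set was 9.83, in KO-labelled cell 81 at 1457687_at, where the other 3 cells of its label were at the floor. Of the remaining probe sets, 1422938_at was read in KO-labelled cell 18 alone (8.78), 1440770_at in KO-labelled cell 81 alone (8.04) and 1437122_at in 3 cells at 6.37 to 6.64. Of the survival genes, Mcl1 and Bcl2l1 were thus the ones detected in most cells.

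Bak1 was the effector that could be read, and it was rarely above the floor. It passed in 4 of 30 cells, with 6.78 in WT-labelled cell 56 and 7.44, 7.52 and 6.02 in Prdm14+/- cells 88, 89 and 97. All 4 KO-labelled cells were at the floor, and the second Bak1 probe set was above it in no cell. Low signal here limits what can be said, since 25.6% of all named genes never passed the floor and another 20.2% did so in 1 to 5 cells.

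Bid was the BH3-only gene seen in nearly every cell. It encodes the protein that caspase 8 cleaves to connect death receptors to the mitochondrion, and it passed the floor in 28 of 30 cells at 1417045_at. The KO-labelled cells read 9.04 (cell 8), 11.64 (cell 18), 11.51 (cell 21) and 11.98 (cell 81). The Prdm14+/- cells ran from 8.97 through a median of 10.29 to 11.77, and the WT-labelled cells from the floor (cells 25 and 64) through 9.90 to 11.40. Cells 18, 21 and 81 thus lay above every WT-labelled cell, and cell 8 lay below the median of both other groups.

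The Bid difference between the KO and WT labels was 1.45 (pooled SD 1.74), so it was smaller than the spread between cells. It ranged from 1.13 to 2.11 as each KO-labelled cell was left out. The difference was 0.72 against all Prdm14+/- cells and 0.90 (pooled SD 1.04) within run 3, and these became 1.39 and 1.56 without cell 8. A second probe set, 1447873_x_at, followed the first over the 30 cells (r = 0.79) and differed by 0.79 (pooled SD 0.83) between the KO and WT labels. The third, 1448560_at, was above the floor in 4 Prdm14+/- cells and 1 WT-labelled cell and in no KO-labelled cell, so that its differences pointed the other way, at -0.09 between the KO and WT labels and -0.61 within run 3 (pooled SD 0.95). Bid and the mean of the PGC markers had r = 0.39 over the 30 cells.

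Bcl2l11, which encodes BIM, the BH3-only protein released when growth factor signals are withdrawn, was read in some cells and not in others. At 1435448_at it was above the floor in 5 of 13 WT-labelled, 10 of 13 Prdm14+/- and 2 of 4 KO-labelled cells. Where it was seen it reached 9.50 and 9.08 in KO-labelled cells 8 and 81, 10.15 in Prdm14+/- cell 66 and 10.05 in WT-labelled cell 48. KO-labelled cells 18 and 21 were under the floor there, but read 7.92 and 9.17 at 1426334_a_at. With all 5 probe sets counted, 23 of 30 cells had Bcl2l11 signal at some probe set, including all 4 labelled KO, 10 of 13 labelled Prdm14+/- and 9 of 13 labelled WT.

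At 1435448_at the Bcl2l11 level also differed between array runs. Prdm14+/- cells averaged 8.72 in run 2 and 7.13 in run 3, a difference of -1.59 (pooled SD 1.27) within 1 label. In run 2 the Prdm14+/- cells exceeded the WT-labelled cells by 2.44 (pooled SD 1.25), while over all runs the difference was 1.0 (pooled SD 1.49). Only 3 WT-labelled cells stand behind the run 2 value. At 1456005_a_at, above the floor in 5 of 30 cells, both differences had the opposite sign, with run 3 above run 2 by 0.99 (pooled SD 0.77) and Prdm14+/- minus WT in run 2 at -1.08 (pooled SD 0.93). At 1456006_at (4 cells) and 1435449_at (2 cells) the first was 0.25 and 0.27 and the second 0.42 and -0.84. No direction by run or label can therefore be given for Bcl2l11 as a gene.

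Bbc3, which encodes PUMA, the main BH3-only target of p53, was read in 4 cells only. It stood at 8.44 in KO-labelled cell 81, 8.99 in WT-labelled cell 50, and 9.40 and 6.42 in Prdm14+/- cells 91 and 118. The other 26 cells were at the floor. No pattern by label can be read from 4 cells.

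**Figure D3:**
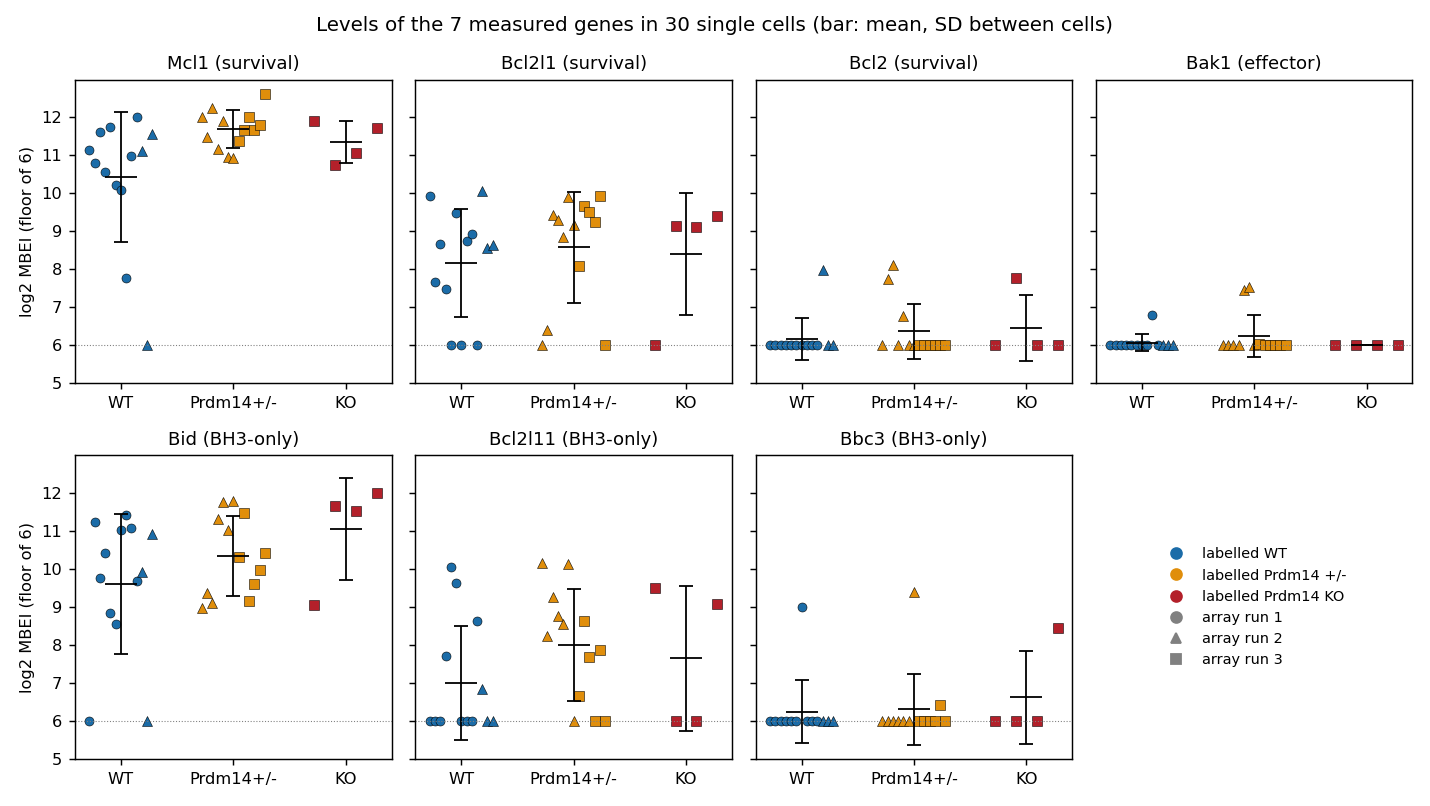
Log2 MBEI (y axis, floor of 6, dotted line) of the 7 measured genes in cells labelled WT, Prdm14+/- and KO (x axis), each symbol 1 cell, with bars for the mean and SD between cells. Mcl1 and Bid sit high in all groups, Bcl2l1 and Bcl2l11 split into cells at the floor and cells well above it, and Bcl2, Bak1 and Bbc3 are at the floor in 25 or 26 of the 30 cells.

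Most cells combined the same 3 genes, where each gene is counted at its brightest probe set alone. Mcl1, Bcl2l1 and Bid were above the floor together in 22 of 30 cells, namely 8 of 13 labelled WT, 11 of 13 labelled Prdm14+/- and 3 of 4 labelled KO. In 13 of those 22, Bcl2l11 was above the floor at its brightest probe set as well, and of these 9 were labelled Prdm14+/-, 3 WT and 1 KO. Left out of the 13 were KO-labelled cells 18 and 21 and WT-labelled cells 51 and 56, which had Bcl2l11 signal at another probe set. Bcl2, Bak1 or Bbc3 was added in 12 of 30 cells. That count leaves out WT-labelled cells 28 and 33, which had Bcl2 signal at another probe set. The number of the 7 genes above the floor per cell ran from 1 (WT-labelled cell 64, with Mcl1 and Bcl2l11 signal at other probe sets) to 6 (Prdm14+/- cell 88). Its means were 3.15 ± 0.99 (SD, n = 13) for the WT label, 4.23 ± 1.09 (SD, n = 13) for Prdm14+/- and 3.75 ± 0.96 (SD, n = 4) for KO. That number followed the share of all genes read in the cell (r = 0.42 over 30 cells), so part of its spread travelled with overall detection. The 3 widely read genes varied almost independently of each other, with r = -0.13 for Bcl2l1 and Mcl1, 0.10 for Bcl2l1 and Bid, and 0.23 for Mcl1 and Bid over 30 cells.

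The balance of survival and death genes was scored for each cell. Each gene was expressed as its deviation from its own mean over the 30 cells, the deviations of Bcl2, Bcl2l1 and Mcl1 were averaged into a survival score and those of Bak1, Bcl2l11, Bbc3 and Bid into a death score, and the balance is the first minus the second. A balance above 0 means only that a cell leaned toward survival genes more than the average of these cells. It was above 0 in 15 of 30 cells.

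Over all runs, the mean balance of the labels differed by less than the spread between cells. The KO-labelled cells gave -0.74 (cell 8), 0.72 (cell 18), 0.27 (cell 21) and -0.91 (cell 81). Prdm14+/- cells ran from -0.85 through a median of 0.03 to 1.28, and WT-labelled cells from -1.70 (cell 50) through -0.21 to 1.95 (cell 25). The KO-labelled cells fell on both sides of 0 and inside the range of the WT-labelled cells. Their mean differed from that of the WT label by -0.12 (pooled SD 0.96) and from that of Prdm14+/- by -0.25 (pooled SD 0.71).

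The cells at the ends of the balance owed their place to different genes. Cell 25 had Mcl1 at 11.13 and Bcl2l1 at 9.92 with Bid listed at 0, which gave it the highest balance. Cell 50 had Bbc3 at 8.99 and Bid above the WT-labelled median, with Bcl2l1 listed at 0, which gave it the lowest. KO-labelled cell 81 had the highest death score of all 30 (1.36), with Bid, Bcl2l11 and Bbc3 all present, beside a survival score of 0.45. KO-labelled cell 8 had a death score of 0.12 and reached its low balance with Bcl2l1 listed at 0 (survival score -0.61). At the probe sets used, cell 64 was low on both sides, at -1.72 and -1.51.

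Survival and death scores were only loosely tied, with r = 0.20 over all 30 cells, -0.07 within the 13 WT-labelled and 0.13 within the 13 Prdm14+/- cells. The survival score followed the share of genes read in the cell (r = 0.49), and the death score did not (r = -0.03). The death score followed the PGC marker mean (r = 0.46), and the survival score did not (r = -0.07). The balance had r = 0.42 with the share of genes read, -0.41 with the PGC marker mean and 0.21 with the somatic mesoderm mean. These coefficients describe cells that share array runs and labels and carry no test.

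**Figure D4:**
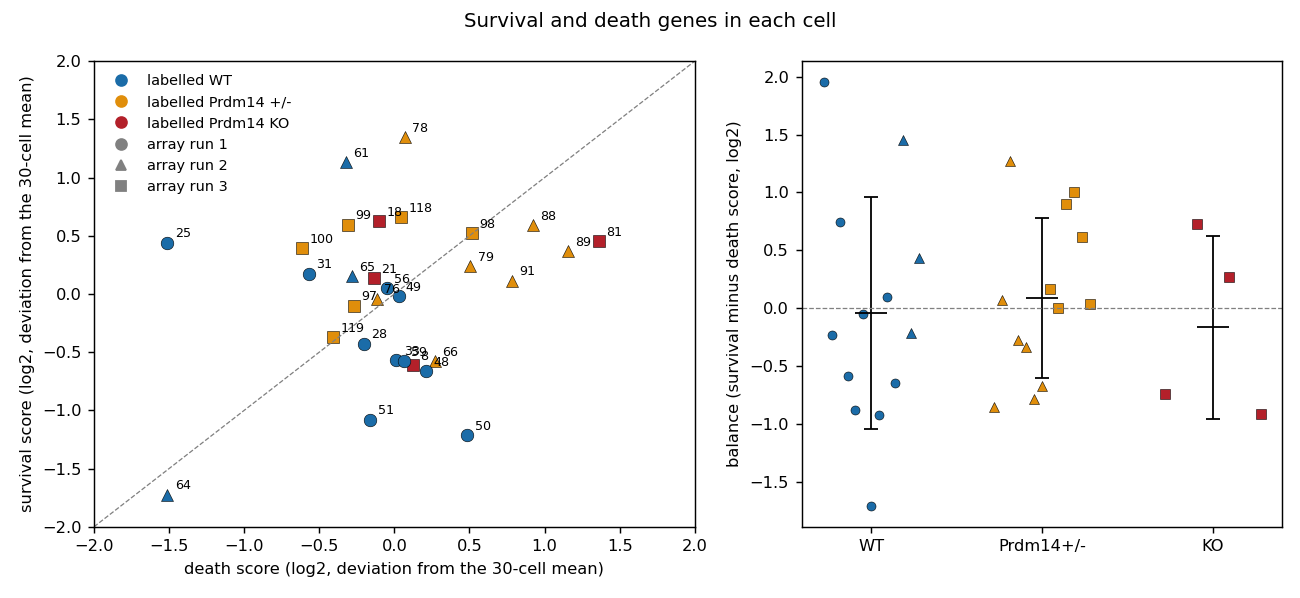
Left, survival score against death score (both in log2, as deviation from the mean of 30 cells) with each symbol 1 numbered cell and the dashed line marking equality. Right, the balance by label, with bars for the mean and SD between cells; the 4 KO-labelled cells lie at -0.91, -0.74, 0.27 and 0.72, within the span of the WT-labelled cells.

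The balance also differed between array runs within 1 label. Among Prdm14+/- cells, all 6 of run 3 were above 0 and 2 of 7 of run 2, with means of 0.46 and -0.22, a difference of 0.68 (pooled SD 0.62) with the label held fixed. The death score carried it, at -0.17 in run 3 against 0.51 in run 2, while the survival score was 0.28 against 0.29. Its largest part was Bcl2l11 at 1435448_at, with run 3 minus run 2 at -1.59, beside -0.42 for Bak1, -0.42 for Bbc3 and -0.32 for Bid. At 1456005_a_at, 1456006_at and 1435449_at Bcl2l11 was higher in run 3, by 0.99, 0.25 and 0.27. Among WT-labelled cells the balance was 0.78 higher in the 3 of run 2 than in the 10 of run 1 (pooled SD 0.98). The labels name no embryo, so run and embryo cannot be told apart.

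Within runs the label means stood further apart than over all runs, by about the spread between cells. In run 3 the KO-labelled cells lay 0.62 below the Prdm14+/- cells (pooled SD 0.60), and in run 2 the Prdm14+/- cells lay 0.78 below the WT-labelled cells (pooled SD 0.76). In both pairs the label with the lower balance named fewer intact Prdm14 alleles but had the higher mean Prdm14 signal over all cells. A relation of the balance to Prdm14 dose was not tested. Its direction would depend on whether the labels or the signal were followed. Without KO-labelled cell 81 the run 3 value was -0.37, and the run 2 value was -1.17 without WT-labelled cell 64 and -0.33 without cell 61. In run 2 it came from the death score, which was higher by 1.22 (pooled SD 0.53), with the 7 Prdm14+/- cells (-0.12 to 1.15) all above the 3 WT-labelled cells (-1.51 to -0.28), and the difference was 0.82 without cell 64. The survival score was higher too, by 0.44 (pooled SD 0.89). The largest part of the death score difference was Bcl2l11 at 1435448_at, 2.44, beside 1.53 for Bid. At 1456005_a_at, 1435449_at, 1426334_a_at and 1456006_at Bcl2l11 differed by -1.08, -0.84, 0 and 0.42. In run 3 the death score differed by 0.49 (pooled SD 0.54) and the survival score by -0.13 (pooled SD 0.47), with overlap in both, and the death score difference was 0.14 without cell 81. A fit with run as a block put the KO-minus-WT balance at -1.40, where the plain difference was -0.12. That blocked value rests on the 3 WT-labelled cells of run 2, of which cell 64 had neither Bid nor Bcl2l11 at the probe sets used, and it was -1.79 without cell 64 and -0.95 without cell 61.

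Counted gene by gene, few members differed by the size set for a call. A difference of at least 1 between the KO and WT labels was met by 1 of 7 members (Bid, higher), where 12.5% of all 18194 genes met it in either direction. Between KO and Prdm14+/- it was met by 0 of 7 members, against 10.9% of all genes, and within run 3 by 0 of 7, against 14.6%. Between Prdm14+/- and WT it was met by 2 of 7 (Mcl1 and Bcl2l11, both higher), against 4.46%, and within run 2 by 3 of 7 (Mcl1, Bcl2l11 and Bid, all higher), against 14.7%. Without cell 64 the Mcl1 difference was 0.88 over all cells and 0.19 within run 2, and that of Bid within run 2 was 0.06. The Bcl2l11 difference lay at the line itself, at 0.92 without cell 64. With run as a block, 4 of 7 members were higher in KO than in WT by at least 1 (Mcl1, Bcl2l11, Bbc3 and Bid), against 24.8% of all genes in either direction and 12.8% higher. That count rests on WT-labelled cell 64. Without it 2 were higher (Bcl2l11 and Bbc3) and 1 lower (Bcl2l1, -1.24), with Mcl1 at -0.32 in place of 1.46 and Bid at 0.96 in place of 2.43, and without KO-labelled cell 81 Bbc3 was at 0.42. The blocked Bcl2l11 value was 2.95 at 1435448_at and -1.44 at 1456005_a_at. With so few members, these shares cannot be separated from the background.

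The other genes of the pathway were taken from fixed lists of its parts. Among 9 further pro-death relatives of BCL2, none was higher in KO than in WT by at least 1 and 2 were lower, where 8.14% of all genes were higher and 4.41% lower. Within run 3 the list gave 0 and 1, where all genes gave 8.76% and 5.88%, and with run as a block 0 and 3, where all genes gave 12.8% and 12%. Bmf, a BH3-only gene linked to cell detachment, averaged 6.95 ± 1.90 (SD, n = 4) in the KO-labelled cells, 8.26 ± 2.04 (SD, n = 13) in the Prdm14+/- and 9.17 ± 1.83 (SD, n = 13) in the WT-labelled cells. It was above the floor in 1 of 4, 8 of 13 and 10 of 13 cells, and the KO-minus-WT difference was -2.22 (pooled SD 1.84). Within run 3 it was -1.84, or -2.79 without cell 81, the KO-labelled cell that read it. Hrk, a BH3-only gene best known from neurons, was above the floor in 0 of 4 KO-labelled and 7 of 13 WT-labelled cells. For contrast, Bcl2l13 averaged 9.53 in KO and 9.02 in WT. Of 2 other survival relatives none differed by 1 between KO and WT or within run 3. Bcl2l2, which encodes BCL-W, averaged 7.95 in KO and 7.29 in WT. With run as a block 1 of the 2 was higher, Bcl2l2 at 1.08, where 12.8% of all genes were.

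Downstream of the mitochondrion, 2 of 8 genes of the apoptosome and of mitochondrial release were higher in KO than in WT by at least 1 and none lower, against the same shares of all genes (8.14% and 4.41%). Within run 3 it was 1 higher and 1 lower, where all genes gave 8.76% and 5.88%. With run as a block it was 2 higher and 2 lower, where all genes gave 12.8% and 12%. Apaf1, the scaffold of the apoptosome, read 8.00, 9.17, 7.09 and 10.48 in KO-labelled cells 8, 18, 21 and 81, and was above the floor in 4 of 13 WT-labelled and 8 of 13 Prdm14+/- cells. Its KO-minus-WT difference was 1.96 (pooled SD 1.38), and that from Prdm14+/- within run 3 was 1.16, or 0.56 without cell 81 and 0.997 without cell 18, and with run as a block it was 0.63. Endog, a mitochondrial nuclease, averaged 8.47 in KO and 7.12 in WT, a difference of 1.35 (pooled SD 1.15), which was 0.41 within run 3. Vdac1, a channel of the outer mitochondrial membrane named here for its run 3 value, differed by -1.11 in that run, or -0.51 without cell 8, and by -2.28 with run as a block. Cycs, which encodes cytochrome c, was above the floor in all 30 cells and averaged 12.59 in KO and 12.92 in WT.

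The caspases and the death receptor genes gave different counts by comparison. Of 6 measured caspases none differed between KO and WT by at least 1, while within run 3 1 was higher and 1 lower, and with run as a block 1 was lower. Of all genes, 8.14% were higher and 4.41% lower between KO and WT, 8.76% and 5.88% within run 3, and 12.8% and 12% with the block. With lists this small, the counts of this paragraph cannot be separated from those shares. Casp9, the initiator caspase of the apoptosome, differed by -0.87 between KO and WT (pooled SD 1.15), -1.33 within run 3 and -2.53 with run as a block. Casp2, an initiator caspase linked to DNA damage, differed by 0.95 (pooled SD 1.63), 1.32 within run 3, or 0.93 without cell 8, and 0.58 with run as a block. Casp6, an executioner caspase, differed by -1.11 between KO and Prdm14+/- (7.65 against 8.77, pooled SD 1.80), a difference of -0.56 without cell 8 or cell 21. No inhibitor of apoptosis out of 6 differed by 1 in these 3 comparisons or from Prdm14+/- over all cells, with Birc5, which encodes survivin, at 11.21 in KO and 11.44 in WT. Of 9 death receptor pathway genes, none of them above the floor in 20 or more cells, 0 differed by 1 between KO and WT and 1 was lower within run 3 and with run as a block. That was Fadd, the adaptor between death receptors and caspase 8, at -0.97 (pooled SD 1.21), -1.17 and -1.56, the last being -0.78 without WT-labelled cell 65. Casp9, Casp2 and Fadd were named after their run 3 values were seen. For contrast, Tnfrsf1a, the receptor for tumour necrosis factor, averaged 7.62 in KO and 6.76 in WT.

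Of 15 measured p53 targets, 5 were higher in KO than in WT by at least 1 and 1 was lower, where 8.14% of all genes were higher and 4.41% lower. The median difference was 0.35, where that of all genes was 0. Of all genes, 25.6% never passed the floor and so differed by 0. Among genes with a mean of at least 8 the median was 0.13, with 13.5% higher and 8.32% lower. Cdkn1a, which encodes the cell cycle inhibitor p21, read 8.75, 10.06, 9.27 and 10.77 in KO-labelled cells 8, 18, 21 and 81. It was above the floor in 5 of 13 WT-labelled cells and 10 of 13 Prdm14+/- cells, and its KO-minus-WT difference was 2.25 (pooled SD 1.83), or 1.75 against Prdm14+/- within run 3. Aen, an apoptosis-linked nuclease, differed by 1.87 (pooled SD 1.54) and Zmat3, an RNA-binding protein, by 1.84 (pooled SD 1.89), but both fell short of 1 within run 3, at 0.38 and 0.24. Trp53inp1 and Phlda3, named after their values were seen because they complete the 5, differed by 1.09 and 1.08, each by less than its pooled SD, and by 0.15 and 0.04 without cell 81. Within run 3 they were at 0.99 and -0.997, and with run as a block at -0.30 and -0.997.

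Sesn2, a stress response gene, was the target that was lower, with a difference of -1.15 (pooled SD 1.62) that was -0.37 without cell 21, and for contrast Ei24 averaged 9.46 in KO and 9.11 in WT. Within run 3, 1 of 15 targets was higher by at least 1 and 1 lower (Sesn2, -1.0, or -0.23 without cell 21), and with run as a block 3 were higher and 2 lower between KO and WT. The 2 lower were Sesn2 (-2.11) and Ei24 (-1.27), and Ei24 was at -0.82 within run 3. Of all genes, 8.76% were higher and 5.88% lower within run 3, and 12.8% and 12% with the block. Bbc3, the target among the members, was at the floor in 3 of the 4 KO-labelled cells.

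Of 9 measured regulators of p53, 1 was higher in KO than in WT by at least 1, 2 were higher within run 3, and 2 were higher and 1 lower with run as a block. Of all genes, 8.14% were higher between KO and WT, 8.76% within run 3, and 12.8% were higher and 12% lower with the block. With 9 genes, these counts cannot be separated from those shares. Mdm2, the ubiquitin ligase that degrades p53 and is itself induced by it, read 9.75, 9.35, 9.51 and 11.25 in KO-labelled cells 8, 18, 21 and 81, with a mean of 9.96 ± 0.87 (SD, n = 4) against 8.27 ± 1.18 (SD, n = 13) in the Prdm14+/- and 8.64 ± 1.26 (SD, n = 13) in the WT-labelled cells. The difference was 1.69 (pooled SD 1.13) from Prdm14+/-, 1.33 (pooled SD 1.19) from WT, and 1.48 within run 3, and the one from WT was 0.90 without cell 81 and 0.28 with run as a block. Atr, a kinase that signals DNA damage to p53, differed by 0.50 (pooled SD 1.47) from WT, 1.78 within run 3 and 3.35 with run as a block. With the block Ppm1d, a phosphatase of this pathway, was at 1.63 and Mdm4, an inhibitor of p53, at -1.40, and both were under 1 in the other comparisons. These 3 were named after their values were seen. For contrast, Usp7, a deubiquitinase of p53 and MDM2, averaged 10.92 in KO and 10.15 in WT.

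Of 6 measured genes that germ cells need for survival, 2 were higher in KO than in WT by at least 1 and 3 were higher in KO than in Prdm14+/- within run 3, where 8.14% and 8.76% of all genes were. With run as a block 4 were higher in KO than in WT, where 12.8% of all genes were. They were Fgfr2 (3.56), Kit (2.68), Dnd1 (1.48, or 0.33 without WT-labelled cell 61) and Tial1 (1.01). Tial1 was named after its value was seen. These counts come from 6 genes and were not tested. Kit, the receptor for stem cell factor and also one of the PGC markers, averaged 11.90 ± 0.64 (SD, n = 4) in KO, 10.38 ± 1.78 (SD, n = 13) in Prdm14+/- and 10.13 ± 1.83 (SD, n = 13) in WT. Dnd1, an RNA-binding protein without which PGCs are lost, averaged 11.91 in KO, 9.91 in Prdm14+/- and 10.92 in WT, and differed by 2.14 from Prdm14+/- within run 3. Fgfr2, a fibroblast growth factor receptor, was above the floor in 3 of 4 KO-labelled and 4 of 13 WT-labelled cells, a difference of 1.65 (pooled SD 0.92). These went with the higher PGC markers of the cells labelled KO, and their share in that was not tested.

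**Figure D5:**
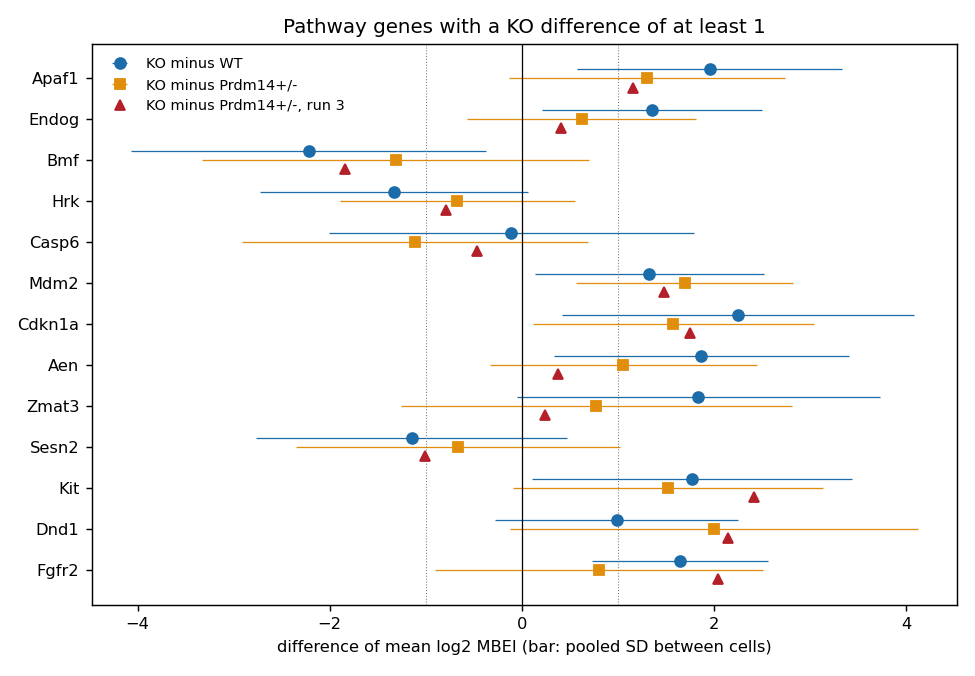
Differences of mean log2 MBEI (x axis) for 13 pathway genes (y axis) between cells labelled KO and WT, KO and Prdm14+/-, and KO and Prdm14+/- within run 3, with bars for the pooled SD between cells where all runs were used and dotted lines at -1 and 1. Mdm2, Cdkn1a, Apaf1 and Kit lie above 1 in all 3 comparisons, Bmf lies below -1 in all 3, and Aen, Zmat3 and Endog drop under 1 within run 3.

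Among 5786 genes above the floor in at least 20 cells, those most like each widely read member over the 30 cells were as follows. Bcl2l1 was closest to Gigyf1 (r = 0.73), Gpc3 (r = 0.69) and Ppp2r5c (r = 0.65), and these stayed at 0.71, 0.76 and 0.72 without its lowest cell. Bid was closest to Exosc10, Tgif2 and Jpt1 (r of 0.65, 0.65 and 0.64), which gave 0.59, 0.53 and 0.52 without cell 25. Mcl1 at 1448503_at was closest to Rrp1b (r = 0.80), Srrm1 (r = 0.76) and Snx3 (r = 0.75), but without cell 64, where that probe set was listed at 0, the coefficients were 0.62, 0.30 and 0.62. Coefficients picked as the best of so many are high by selection, and the cells share labels, runs and overall detection.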

How the data were processed

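Single-cell cDNA was amplified and hybridised to Affymetrix Mouse Genome 430 2.0 arrays. The authors computed the deposited log2 MBEI values with dChip 1.3; the scaling between arrays was not given in the sources used here. Probe sets were named through the platform annotation (34958 with 1 symbol, 932 with several and not used, 9211 not listed). Values under 6 were set to 6. Each gene was read at its brightest probe set (highest mean of 30 cells). Genotype came from the labels, the run from array codes. Because no embryo is named, means were compared by size (a difference of at least 1) beside the pooled SD, with no test; precision is limited by the number of arrays. Procedures were tested on simulated data. All member probe sets were read. Named were, of each pathway list, up to 4 genes with a KO-minus-WT or KO-minus-Prdm14+/- difference of at least 1, by size, and the gene with the brightest probe set for contrast; others were named after their values were seen, as the text says; for each member above the floor in at least 20 cells, the 3 genes most correlated with it. The members and lists were chosen with earlier results of these data known. Python 3.11.15, NumPy 2.4.6 and pandas 2.3.3 were used.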

Additional observations from a re-analysis of the deposited data

Results flagged for a closer look

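In the 4 cells labelled Prdm14 KO, 4 of the 14 gene or score readings examined held a cell whose gap to its nearest neighbour took up most of the range of the 4. Chance marks about 1 in 20 such groups, and a floor makes it more frequent, since 3 cells at the same floor leave the fourth alone. Bcl2 in cell 18 had a ratio of gap to range of 1, at 7.75 with the other 3 cells at the floor. Bbc3 in cell 81 likewise had a ratio of 1, at 8.44. Bcl2l1 in cell 8 had a ratio of 0.91, at the floor where the others read 9.09 to 9.39. Bid in cell 8 had a ratio of 0.84, at 9.04 where the others read 11.51 to 11.98.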

How the results depend on the processing

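The balance, survival score and death score stayed within the pooled SD of their reported values in 87 of 93 alternatives set in advance (floors of 4 and 8, quantile normalization, scaling on probe sets above 0 on all arrays, medians, run as a block, within 1 run, averaging a gene's probe sets, each KO cell left out) and in all 24 chosen after seeing the data, with a change of sign in 8 and 4. With run as a block, the KO-minus-WT death score moved from 0.61 to 1.70 and the balance from -0.12 to -1.40. With the block, as within run 2, the Prdm14+/- minus WT death score moved from 0.49 to 1.22 and the balance from 0.13 to -0.78. Leaving out 1 KO cell at a time gave a KO-minus-WT balance of -0.42 to 0.12, survival score of 0.32 to 0.74 and death score of 0.26 to 0.76, and a KO-minus-Prdm14+/- balance of -0.55 to -0.01, survival score of -0.30 to 0.12 and death score of -0.23 to 0.27. The member differences stayed within the pooled SD in 213 of 217 alternatives set in advance, with a change of sign in 21, and in 22 of 24 chosen after seeing the data, with a change of sign in 3. The KO-minus-WT difference of Mcl1 was -0.24 as the mean over its 6 probe sets and -0.63 by 1416880_at. The number of members past 1 between KO and WT, reported as 1, was 3 with a floor of 4, 2 by medians, 4 with the block, 0 by the mean over probe sets, 2 without cell 8 and 3 without cell 18 or cell 21; between KO and Prdm14+/- it was 1 by medians and 1 without cell 8, in place of 0. Between Prdm14+/- and WT it was 1 with a floor of 8, quantile normalization or medians and 0 by the mean over probe sets, in place of 2. Leaving out the 6 cells with under 35% of genes read, in the same order of comparisons, gave 1, 0 and 3. Within run 3 all 6 Mcl1 probe sets remained lower in KO under both other scalings, by -0.37 to -1.67. No paired analysis was possible because replicate numbers name single cells and are not shared between genotypes. The 4 KO-labelled cells, the single probe sets behind Bcl2l1 and Bbc3 and the floor limit all of these values, and a gene under the floor is not shown to be silent.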
